A study of Mus musculus with 2 samples.

Results

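The globin genes and Alas2, the gene of the erythroid heme enzyme, were compared between embryoid bodies with and without induced hairpins against HoxBlinc, a long noncoding RNA of the HoxB cluster. The 8 genes were chosen by name and all 8 were found among the 20207 genes of the tables: the embryonic globins Hbb-bh1, Hba-x and Hbb-y, the adult globins Hba-a1, Hba-a2, Hbb-b1 and Hbb-b2, and Alas2. Embryoid bodies are aggregates in which mouse embryonic stem cells form tissues of the early embryo in suspension. Total RNA was taken on day 6 and sequenced as paired-end reads. All cultures carried the doxycycline-inducible shHoxBlinc hairpins. The first library came from cultures without doxycycline, the other from cultures given doxycycline at 2 ug/ml from day 2. Each pooled the RNA of 2 hairpins. The target of the hairpins was not analysed here. Neither library came from a control hairpin, so doxycycline itself, the hairpins and loss of their target cannot be told apart. The stem cell lines named are R1/E and CGR8 MHC-GFP, kept on irradiated mouse feeder fibroblasts before differentiation, and the labels do not say which line gave a library. An embryoid body is a mixture of cells, so fewer red cells and less globin RNA per red cell cannot be told apart in these data.

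Each group was 1 library, so the spread between cultures is not known, no test was possible, and every statement is about these 2 libraries. The libraries held 37046449 gene counts without and 24924921 with doxycycline. Levels are given as CPM, counts of a gene per 1000000 gene counts of its library, and 3 counts, taken as the floor, came to 0.0810 CPM in the first library and 0.120 CPM in the other. Where a pair of counts is given, the library without doxycycline comes first, and every fold is a ratio of CPM, which allows for the unequal totals. Intervals are exact 95% intervals and cover counting error only. The library with doxycycline also had fewer reads in genes of the chemical senses: 749 of 1413 chemosensory receptor genes had reads without and 91 with doxycycline. The part of this in the differences of low genes was not tested.

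Haemoglobin is built from alpha-like and beta-like globin chains, each holding a heme group. The first red cells of the mouse embryo arise in the yolk sac and use the embryonic chains zeta (Hba-x), beta-h1 (Hbb-bh1) and epsilon-y (Hbb-y), and in the mouse they shift from Hbb-bh1 towards Hbb-y as they mature. Red cells made later in the liver and marrow use the adult chains of Hba-a1, Hba-a2 and the adult beta genes. Alas2 makes the first product of heme synthesis in red cells, where Alas1 does so in other cells.

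The coding sequences show which globins short reads can tell apart. In the GENCODE M21 transcripts (build GRCm38) Hbb-bh1 and Hbb-y, both on chromosome 7, differed at 105 of 444 coding bases and shared no identical run longer than 26 bases. Their first 90 coding bases are shown with the 30 differing bases in capitals.
Hbb-bh1: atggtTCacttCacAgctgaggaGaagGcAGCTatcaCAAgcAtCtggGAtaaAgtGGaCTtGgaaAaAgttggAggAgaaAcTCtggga
Hbb-y: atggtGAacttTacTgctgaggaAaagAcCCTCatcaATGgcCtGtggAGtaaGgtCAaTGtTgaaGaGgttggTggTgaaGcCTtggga
The adult alpha genes Hba-a1 and Hba-a2, both on chromosome 11, differed at 1 of 429 coding bases, with an identical run of 380. Their first 90 coding bases, printed once, were the same.
Hba-a1 and Hba-a2: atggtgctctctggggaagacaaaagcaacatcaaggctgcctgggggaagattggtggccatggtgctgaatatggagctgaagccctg
Hba-x and Hba-a1 differed at 163 of 429 coding bases, with a longest identical run of 18. Hbb-bs and Hbb-bt, the adult beta genes of the reference annotation, differed at 1 of 444. The embryonic genes are thus distinct in sequence from each other and from the adult genes, while each adult pair is nearly identical.

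Promoters are shown for Hba-x, Hbb-y (on few counts) and Alas2, members that were lower with doxycycline, and for Hba-a1. Hbb-bh1, also lower, had no matching promoter entry and is not shown. The 250 bases before the start of each gene were taken from RefSeq (GRCm38.p6, 5′ to 3′ on the gene's strand), which matched 5 of the 8 members, among them Hba-a2, whose window shared an identical run of 247 bases with that of Hba-a1 and is not printed. Capitals mark 4 kinds of motif, searched on both strands: GATA sites (AGATAA, with T also allowed first and G last), as bound by Gata1, CACCC boxes (CCACCC), as bound by Klf1, CCAAT boxes (CCAAT) and TATA boxes (TATAA). Sites were counted also where they overlapped.
Hba-x, chr11:32276350-32276599, plus strand: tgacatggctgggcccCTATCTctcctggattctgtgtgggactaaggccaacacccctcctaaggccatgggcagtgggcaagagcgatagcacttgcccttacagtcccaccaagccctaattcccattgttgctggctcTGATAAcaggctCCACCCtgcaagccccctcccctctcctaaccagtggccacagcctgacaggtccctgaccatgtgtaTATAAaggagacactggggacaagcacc
Hbb-y, chr7:103853208-103853457, minus strand: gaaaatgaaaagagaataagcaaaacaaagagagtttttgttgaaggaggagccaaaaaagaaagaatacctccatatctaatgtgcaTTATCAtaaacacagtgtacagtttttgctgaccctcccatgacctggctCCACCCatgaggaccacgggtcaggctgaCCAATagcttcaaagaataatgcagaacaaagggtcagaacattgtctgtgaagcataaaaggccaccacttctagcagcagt
Hba-a1, chr11:32283422-32283671, plus strand: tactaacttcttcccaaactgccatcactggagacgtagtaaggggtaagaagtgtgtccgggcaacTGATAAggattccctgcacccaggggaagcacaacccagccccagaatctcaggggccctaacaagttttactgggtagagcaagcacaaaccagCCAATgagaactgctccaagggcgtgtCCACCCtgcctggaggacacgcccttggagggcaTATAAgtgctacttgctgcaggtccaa
Alas2, chrX:150547167-150547416, plus strand: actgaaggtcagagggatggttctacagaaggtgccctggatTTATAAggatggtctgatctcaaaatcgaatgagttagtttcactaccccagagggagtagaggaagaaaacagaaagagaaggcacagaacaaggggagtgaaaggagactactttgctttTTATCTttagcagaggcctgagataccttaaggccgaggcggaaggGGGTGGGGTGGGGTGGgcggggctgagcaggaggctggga
Hba-x held 2 GATA sites and 1 CACCC box, which began 96 bases before the start, and Hbb-y held 1 of each, the CACCC box 112 bases before the start. Alas2 held 1 GATA site and 3 overlapping CACCC boxes on the other strand. Hba-a1 and Hba-a2, listed at 0 in both libraries, also held 1 GATA site and 1 CACCC box each. The adult beta genes of the reference annotation, not printed, did not hold both. Hbb-bs held 1 GATA site and 0 CACCC boxes, and Hbb-bt 0 GATA sites and 1 CACCC box. Of 32851 promoter windows of that length 26.5% held a GATA site, 28.1% a CACCC box and 5.8% both. These matches are letters in a window, not sites shown to be bound.

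Embryonic globin RNA was present without doxycycline and was listed at 0 with it. Hbb-bh1 (chromosome 7, 110990152 to 110991676, in the mm9 build that the deposited coordinates follow) had 1039 counts without and 0 with doxycycline, or 28.1 and 0 CPM. Against the floor of 3 counts it was 233-fold lower, and the bound is the exact lower limit, 189. Hba-x (chromosome 11, 32176600 to 32178113) had 301 and 0 counts, or 8.12 and 0 CPM. It was 67.5-fold lower against that floor, with an exact lower limit of 54.6. Both genes were thus seen in the first library alone. Of 9942 genes with at least 300 counts without doxycycline, 0.0201% were listed at 0 with it, and these were Hbb-bh1 and Hba-x. That cutoff lies just under the 301 counts of Hba-x and above the 274 of Nkx2-5, the next gene at 0. That only these globins passed thus follows from the cutoff. At a cutoff of 100 counts the share was 0.043%.

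Hbb-y (chromosome 7, 111000268 to 111001721) was far scarcer, with 14 and 0 counts. It was 3.14-fold lower against the floor, with an exact lower limit of 2.23. With all counts halved, since both mates of a read pair may have been counted, that limit was 0.970 and so included 1. Of 933 genes with 10 to 20 counts without doxycycline, 13.6% were listed at 0 with it, so a 0 at this depth was common.

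Per length, the embryonic globins stood in a clear order without doxycycline. Hbb-bh1 was at 27.8 RPKM (reads per kilobase of gene model and per 1000000 reads), rank 1767 of 17914 genes with reads. Hba-x was at 8.21 RPKM, rank 5807, and Hbb-y at 0.369 RPKM, rank 12369. The beta-like Hbb-bh1 was thus 3.38 times the alpha-like Hba-x and 75.3 times Hbb-y in RPKM. Of the 1354 embryonic globin counts Hbb-bh1 held 76.7% (95% interval 74.4 to 79.0), Hba-x 22.2% (20.04 to 24.5) and Hbb-y 1.03% (0.566 to 1.73). Neighbours in that order did not overlap in their intervals. Together the 3 genes made up 36.6 CPM without doxycycline, or 0.00365% of all gene counts. Against the floor they were 304-fold lower with doxycycline (exact lower limit 247). With doxycycline there was no globin read among these genes, so no composition can be given.

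**Figure D1:**
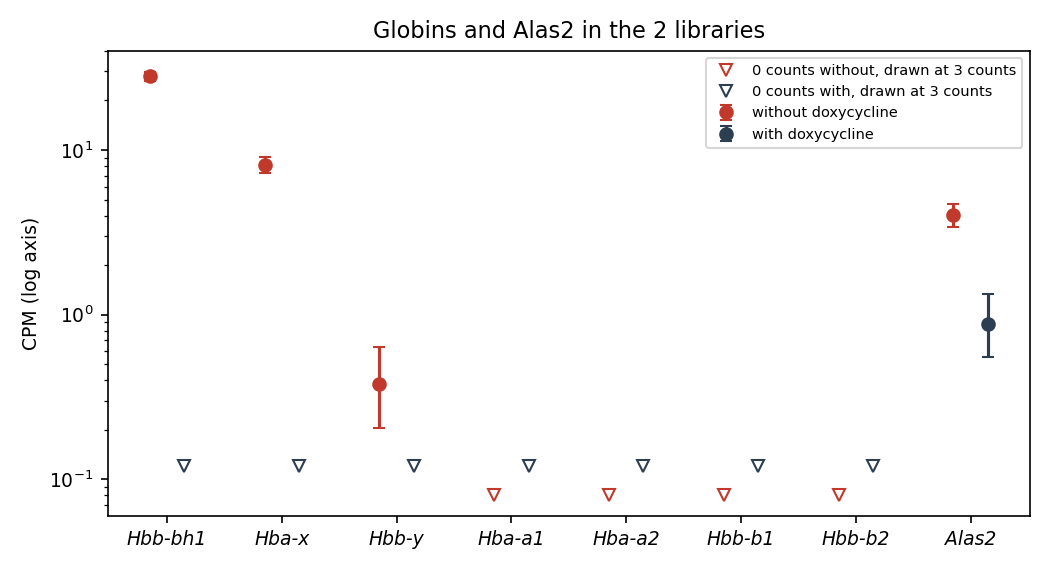
CPM of the 8 genes on a log axis, in red without and in dark blue with doxycycline; bars are exact 95% counting intervals and open triangles mark 0 counts, drawn at the floor of 3 counts. Hbb-bh1 at 28.1 and Hba-x at 8.12 CPM stand well above the floor without doxycycline, and Alas2 is the only one of the 8 with reads in both libraries.

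The adult globins Hba-a1, Hba-a2, Hbb-b1 and Hbb-b2 were listed at 0 counts in both libraries, singly and summed by pair. These zeros cannot be read as absence of the RNA. In the tables the models of Hba-a1 (chromosome 11, 32183672 to 32184486) and Hba-a2 (32183675 to 32184493) overlapped reciprocally over 99.15% of their length, and those of Hbb-b1 (chromosome 7, 110961042 to 110962437) and Hbb-b2 (110961038 to 110962417) over 98.57%. For the alpha pair this overlap belongs to the deposited models. In GRCm38 the promoter windows of Hba-a1 and Hba-a2 start apart, at 32283422 and 32296242. The tables held 184 pairs of gene models with a reciprocal overlap of at least 90%, made of 215 genes. Of those genes 63.7% were at 0 in both libraries, against 9.68% of the 19992 other genes. Without chemosensory receptors the shares were 58.95% and 7.13%. Amd1, an enzyme of polyamine synthesis that dividing cells need, overlapped Amd2 over 99.96% and was listed at 2.00 counts without and 0.998 with doxycycline. Other genes of such pairs kept many counts, among them Hnrnpa1 at 2657 and 1180 and Eno1 at 1916 and 1456. The compared sets were not matched for expression, and whether overlap made the zeros was not tested. Whether adult globin RNA differed between the libraries, and what share of globin RNA was embryonic, could therefore not be read from the tables.

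Alas2 (chromosome X, 146981960 to 147005165) was lower with doxycycline but not absent. It had 149 counts without and 22 with doxycycline, at 1.23 and 0.240 RPKM, and 4.02 and 0.883 CPM. The ratio of CPM was 4.56-fold lower (2.90 to 7.49). As log2(RPKM + 0.5), where the added 0.5 shrinks the ratios of low genes, the difference with minus without doxycycline was -1.22, against a median of -0.18 over the 11063 genes with at least 1 RPKM in the higher library. With 1 added in place of 0.5 the difference was -0.85, short of 2-fold. With 0.5 added, 2.64% of those genes lay 2-fold or more below their level without doxycycline and 0.262% above it. Hbb-bh1, at -5.82, and Hba-x, at -4.12, were the other members past 2-fold. Hbb-y, below 1 RPKM in both libraries, and the 4 adult genes at 0 did not enter that count, and a member at 0 with doxycycline could enter it only through its level without. In ratios of CPM the median log2 ratio of the 11063 genes was -0.03. There 16.8% of the 1405 genes with 100 to 300 counts over both libraries were past 2-fold lower and 2.21% past 2-fold higher, a class that holds Alas2.

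**Figure D2:**
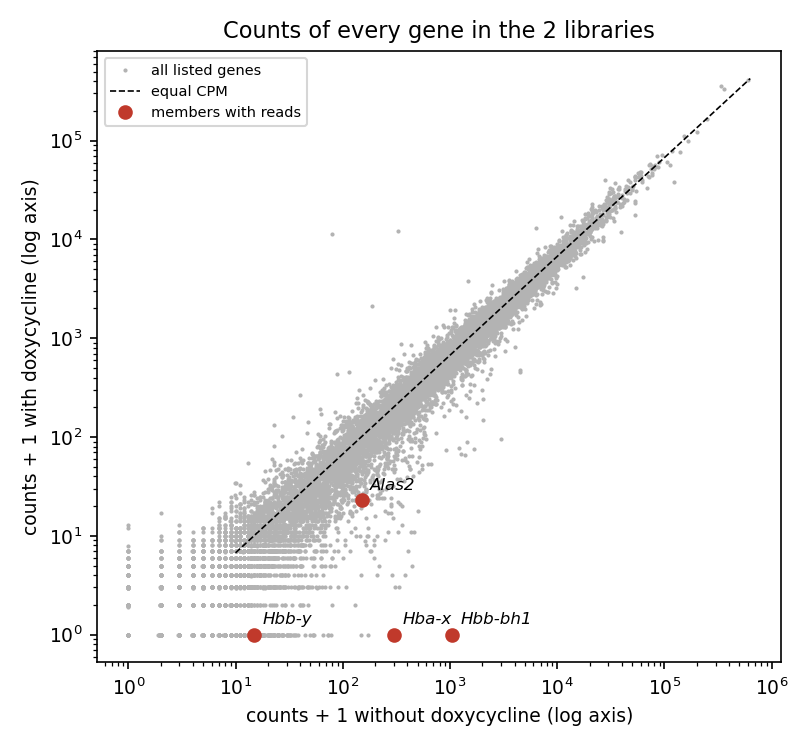
Counts plus 1 of every listed gene without (horizontal) and with doxycycline (vertical), on log axes, with the members that had reads in red and equal CPM as a dashed line. Hbb-bh1 with 1039 and Hba-x with 301 counts lie at the far right of the row of genes at 0 with doxycycline, Hbb-y with 14 among many others, and Alas2 lies below the line at 149 and 22 counts.

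The other enzymes of heme synthesis were nearly level between the libraries. Of these 8 genes, all measured, 0 were at least 2-fold lower or higher on the RPKM scale. This is near the shares of all measured genes, 2.64% lower and 0.262% higher. The median log2 ratio of the 8 was -0.28 against -0.18 for all measured genes. Alas1, the form of the enzyme used outside red cells, had 1377 counts without and 680 with doxycycline and was 1.36-fold lower (1.24 to 1.496). Fech, ferrochelatase, which inserts the iron, was 1.25-fold lower (1.16 to 1.35). Alad, the second enzyme of the pathway, was 1.19-fold lower (1.12 to 1.27). For Uros, Urod, Cpox and Ppox the intervals of the fold included 1, the folds lying between 1.01 and 1.05. The Alas2 fold was 3.34 times the Alas1 fold (conditional odds ratio, 2.10 to 5.55) and 4.51 times the Ppox fold (2.82 to 7.53), and its interval lay above 1 against each of the 8. The genes of the first step thus stood in different proportion in the 2 libraries: Alas1 was at 6.77 times the Alas2 level in RPKM without and 22.6 times with doxycycline.

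**Figure D3:**
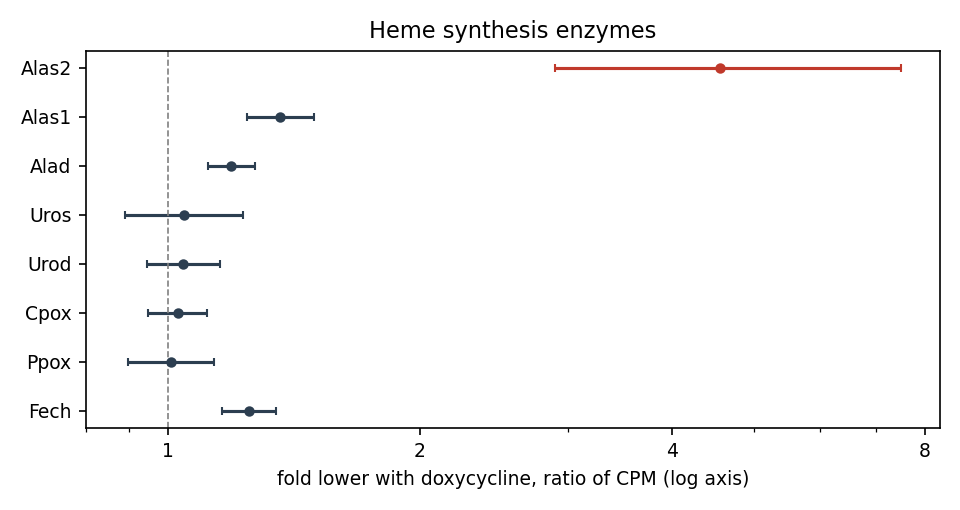
Fold lower with doxycycline (CPM without over with, log axis) for Alas2, in red, and the 7 other heme synthesis enzymes named in the text; bars are exact 95% counting intervals and the dashed line marks no difference. Alas2 at 4.56 lies apart from the rest, which lie between 1.01 and 1.36.

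Genes that handle iron and heme more widely went both ways. Of 27 listed 24 were found and 0 were past 2-fold on the RPKM scale. This is near the shares of all measured genes, 2.64% lower and 0.262% higher. The median log2 ratio of the 24 was -0.27. Tfrc, the transferrin receptor through which red cells take up iron, had 6963 and 3409 counts, or 1.37-fold less in CPM (1.32 to 1.43). Abcb10, a mitochondrial transporter that binds the iron importer mitoferrin, was 1.68-fold lower (1.55 to 1.81), Trf, transferrin, 1.99-fold (1.55 to 2.58) and Slc40a1, the iron exporter ferroportin, 1.41-fold (1.29 to 1.53). Slc25a37, mitoferrin itself, named after its values were seen, was 1.19-fold lower (1.06 to 1.34). Ftl1, ferritin light chain, and Hmox1, heme oxygenase, also named after their values were seen, were higher with doxycycline, Ftl1 at 31390 and 32910 counts and Hmox1 at 1130 and 1140, with intervals of the fold lower of 0.632 to 0.652 and 0.614 to 0.725.

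In the alpha-globin locus, within 100 kb, Mare, the gene whose introns hold the main alpha-globin enhancers, had 981 counts without and 726 with doxycycline, and the interval of its fold lower included 1 (0.909, 0.825 to 1.00). Mpg, a DNA repair glycosylase, was 1.19-fold lower (1.06 to 1.35), Snrnp25, a splicing protein, 1.13-fold (1.01 to 1.28) and Sh3pxd2b, an adaptor of cell protrusions, 1.31-fold (1.23 to 1.40). With halved counts the interval of Snrnp25 included 1 (0.962 to 1.34). Rhbdf1, an inactive rhomboid protease, was at 3320 and 2445 counts, a fold lower of 0.914 (0.867 to 0.963) that turned to 1.02 when scaled by the denominators of the RPKM values and to 1.21 in the authors' deposited RMS-normalized table. Il9r, an interleukin receptor, had 20 and 3 counts (4.49-fold lower, 1.33 to 23.6), with an interval that included 1 when counts were halved (0.717 to 31.6). F830116E18Rik had 4 and 2.00 counts.

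Beside Alas2 on chromosome X, Apex2, a DNA repair nuclease, had 486 and 334 counts with a fold lower of 0.979 (0.8499 to 1.13), and Pfkfb1, a regulator of glycolysis, 646 and 494 with 0.880 (0.781 to 0.991), a value that turned to 1.16 in the authors' deposited RMS-normalized table. Tro, trophinin, an adhesion protein, was 1.05-fold lower (1.02 to 1.09). With halved counts the intervals of Pfkfb1 and Tro included 1 (0.743 to 1.04 and 0.9995 to 1.11). The beta-globin genes lie among 13 olfactory receptor genes, of which 9 had reads without doxycycline, and whose highest level was 0.0686 RPKM. Together they had 21 counts and 0, 4.71-fold lower against the floor (exact lower limit 3.50), a greater fold and limit than those of Hbb-y. The remaining gene there, Gm5736, had 2 and 0 counts.

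**Figure D4:**
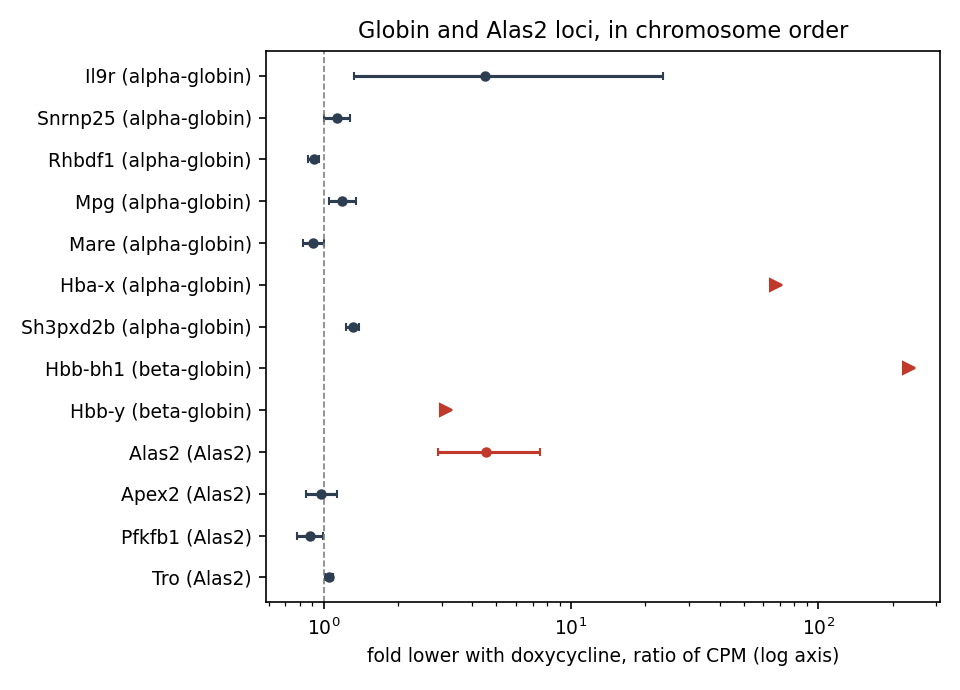
Fold lower with doxycycline (CPM without over with, log axis) for genes of the alpha-globin, beta-globin and Alas2 loci with at least 20 counts. Genes are in chromosome order, and members with reads are also drawn, in red. Bars are exact 95% counting intervals, and arrowheads mark folds against a floor of 3 counts. Among the neighbours Il9r, with 20 and 3 counts, has the highest fold, 4.49, and the rest lie between 0.880 and 1.31.

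The other globins of the tables were scarce. Mb, myoglobin of muscle, had 84 and 36 counts, or 1.57-fold less in CPM (1.05 to 2.39), with an interval that included 1 when counts were halved (0.884 to 2.90). Cygb, cytoglobin of fibroblast-like cells, had 78 and 5 counts, or 10.5-fold less in CPM (4.31 to 33.2). Ngb, neuroglobin, with 8 and 11 counts, and Hbq1, the theta globin beside the alpha genes, with 4.00 and 8, had intervals of the fold lower that included 1 (0.171 to 1.34 and 0.0741 to 1.26).

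Red cell membrane genes were mostly too low to be measured at 1 RPKM. Of 21 found 7 were measured there, and 0 were past 2-fold, near the shares of all measured genes, 2.64% lower and 0.262% higher. In ratios of CPM, a measure added after the values were seen, 6 of the 18 genes with at least 20 counts and the same gene model in both tables were at least 2-fold lower and 0 higher. Over all such genes 7.86% were lower and 1.32% higher. Among those with 20 to 200 counts, the class of all 6, the shares were 28% and 4.68%, and above 200 counts 2.87% and 0.482%. The list held 11 genes of that class. Slc4a1, the anion exchanger band 3, had 53 counts in the library without doxycycline and 4 in the other (8.91-fold lower, 3.28 to 33.9), and Spna1, the red cell alpha spectrin, 115 and 16 (4.84-fold, 2.85 to 8.74). Add2, an adducin, had 58 and 8, Tmod1, a tropomodulin that caps actin, 68 and 13, and Icam4, an adhesion protein of erythroblasts, 29 and 5. These 5 of the 6 were picked for their values. Of the members outside these 18, left out for few counts or an unlike gene model, some were also past 2-fold lower. The members named next were not past 2-fold. Rhd, a blood group protein, had 67 and 26 counts (1.73-fold lower, 1.09 to 2.84), with an interval that included 1 when counts were halved (0.905 to 3.63). Epb4.2, a membrane skeleton protein, had 16 and 6 counts, and Ermap, an erythroblast membrane protein, 17 and 16. For both the interval included 1 (0.667 to 5.60 and 0.340 to 1.51). Epb4.1, protein 4.1, was 1.22-fold lower (1.13 to 1.31), Slc2a1, the glucose transporter, 1.46-fold lower (1.44 to 1.48), and the interval of Tspan33 included 1 (0.912 to 1.24). Xk, a membrane protein linked to Kell, was higher, at 239 and 265 counts (1.65-fold higher, 1.38 to 1.97).

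Of 12 soluble red cell and receptor genes found, 7 had at least 20 counts and 0 of these were past 2-fold in CPM, where the share of all such genes was 7.86% lower. The list held 3 genes in the class of 20 to 200 counts, where it was 28%. Epor, the erythropoietin receptor, had 52 and 22 counts with an interval that included 1 (1.59-fold lower, 0.949 to 2.75). Hemgn, an erythroid nuclear protein, had 7 and 0 counts and Car1, the red cell carbonic anhydrase, 0 in both. Car2, Bpgm, Prdx2 and Nt5c3, which many cells use, lay between 0.885 and 1.13 in fold lower.

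Of 22 regulators of globin genes found, 11 were measured at 1 RPKM, where 1 was at least 2-fold lower and 0 higher, against 2.64% and 0.262% of all measured genes. Their median log2 ratio was -0.48, against -0.18. In CPM 8 of the 20 with at least 20 counts were at least 2-fold lower and 0 higher, all 8 among the 10 with 20 to 200 counts. Over all genes the share lower was likewise greater in that class, at 28%, than above 200 counts, at 2.87%. Lmo2, the bridging protein of the Tal1 and Gata1 complex, had 128 and 22 counts, or 3.91-fold less in CPM (2.48 to 6.46). Gfi1b, a repressor needed for red cells and platelets, had 28 and 1 counts (18.8-fold, 3.12 to 770), and Nfe2, an activator of globin genes, 42 and 7 (4.04-fold, 1.80 to 10.7). Gfi1b and Nfe2 were picked with their values known, and so were Tal1, Ldb1, Klf1, Myb and Tcf3. Tal1, the partner of Lmo2, had 165 and 27 counts (4.11-fold, 2.73 to 6.43). Gata1, the master regulator of red cell genes, had 112 and 31 counts (2.43-fold, 1.62 to 3.75). Klf2, a Krüppel-like factor that acts on embryonic globins in the mouse, had 782 and 329 counts, or 1.60-fold less in CPM (1.40 to 1.82). Zfpm1, the Gata1 cofactor, was 1.65-fold lower (1.51 to 1.80). Ldb1, which links globin enhancers to promoters, was 1.25-fold lower (1.19 to 1.31). Klf1, the main activator of adult beta-globin, had 38 and 16 counts and Myb, a factor of later blood formation, 66 and 41, both with intervals that included 1 (0.870 to 3.07 and 0.723 to 1.64). The gene listed as Tcf3 went the other way, at 294 and 280 counts (fold lower 0.706, 0.598 to 0.835). By its position (chromosome 6, 72576374 to 72738950) it is Tcf7l1, which once bore that symbol, and not the partner of Tal1. It nonetheless enters the counts and median of this list.

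**Figure D5:**
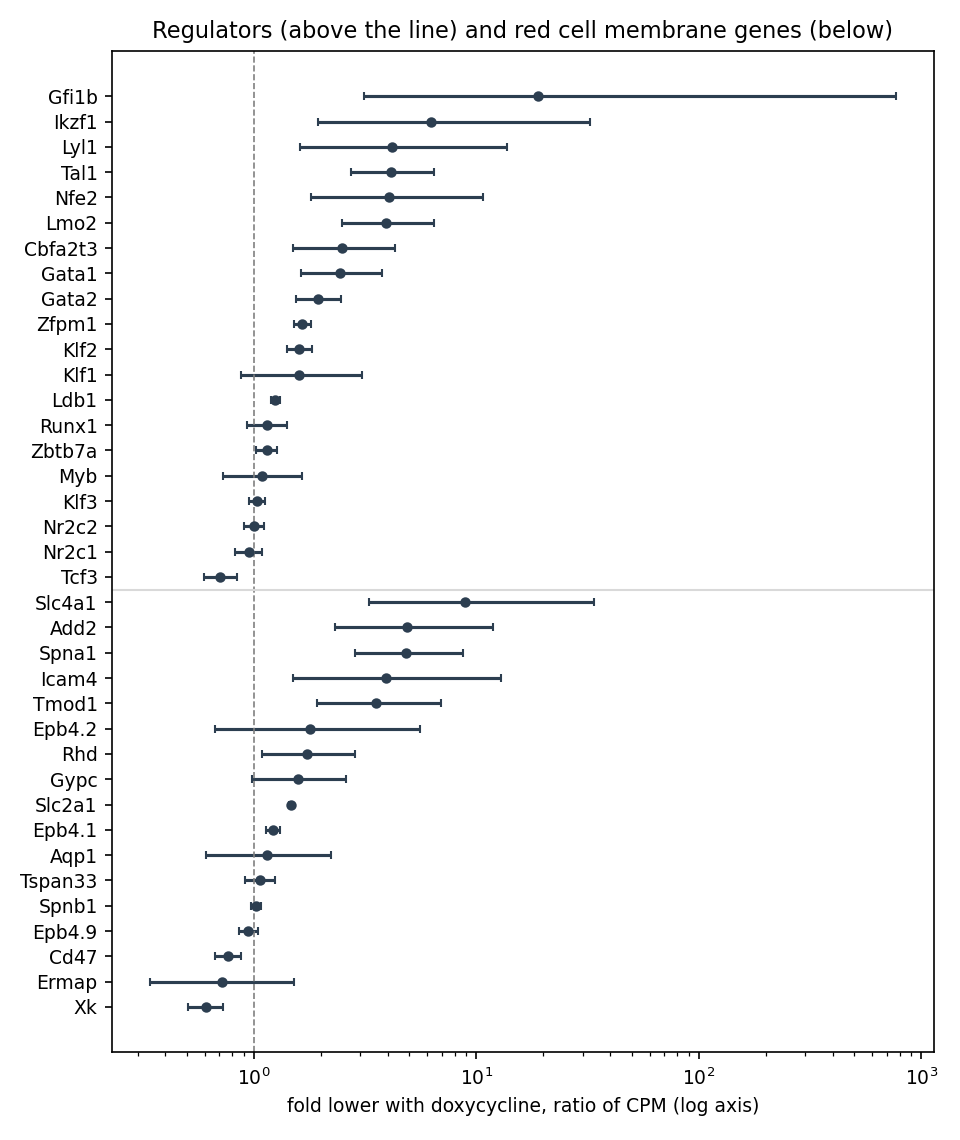
Fold lower with doxycycline (CPM without over with, log axis) for globin regulators, above the line, and red cell membrane genes, below it, with at least 20 counts over both libraries, except 1 gene not reported here; bars are exact 95% counting intervals. Gfi1b at 18.8 and Slc4a1 at 8.91 are the highest drawn in their lists, with wide intervals from few counts, while Ldb1 at 1.25 and Slc2a1 at 1.46 rest on many. The gene listed as Tcf3 is Tcf7l1 by its position.

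Markers of other cell types differed between the libraries as well, and their part in the globin difference was not tested. Of all genes measured at 1 RPKM, 2.64% were 2-fold or more lower and 0.262% higher. Summed over 11 endothelial markers the level was 128 CPM without and 37.1 with doxycycline, and 5 of 8 measured at 1 RPKM were at least 2-fold lower. Kdr, the VEGF receptor that also marks the precursors of blood, had 1370 counts in the library without doxycycline and 65 in the other (14.2-fold lower, 11.1 to 18.5), and Tie1, an endothelial receptor, 328 and 10. For 9 markers of visceral endoderm, the layer that faces the blood islands in the yolk sac, the sums were 102 and 24.5 CPM, and 6 of 7 measured were at least 2-fold lower. Among them Hnf4a, a factor of that layer, had 359 and 12 counts and Ttr, transthyretin, 550 and 47.

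The sums were 741 and 454 CPM for 9 fibroblast markers, with 4 of 6 measured at least 2-fold lower, among them Col3a1, a collagen, at 1418 and 267 counts. For 8 cardiac muscle markers they were 124 and 68.0 CPM, with 5 of 7 at least 2-fold lower, among them Myl7, the atrial myosin light chain, at 441 and 4 counts. None of the measured markers in these 4 lists was at least 2-fold higher. Over all measured genes the shares were 2.64% lower and 0.262% higher. For 8 megakaryocyte markers the sums were 10.1 and 5.94 CPM, and Pf4, which marks the parent cells of platelets, was at 1 count without and at 0 with doxycycline. For 10 macrophage and leukocyte markers the sums were 27.7 and 34.3 CPM, most of it from Cd68, a lysosomal protein, at 842 and 793 counts. Without Cd68 the other 9 summed to 4.94 and 2.53 CPM. Among these Csf1r, a macrophage receptor, had 120 and 34 counts (2.38-fold lower, 1.61 to 3.58) and Mpo, an enzyme of myeloid cells, 9 and 0. Ptprc, which defines white blood cells, had 3 and 1 counts.

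The genes most like the embryonic globins were taken as those with the most counts without doxycycline among genes at 0 with it, over the 2 libraries. After Hbb-bh1 and Hba-x these were Nkx2-5, a cardiac homeobox factor, with 274 counts, Col9a1, a cartilage collagen, with 172, and Sphkap, an anchoring protein for protein kinase A, with 147. Per length they were at 2.93, 0.722 and 0.368 RPKM, against 27.8 for Hbb-bh1. Of 11615 genes with at least 100 counts without doxycycline, 0.043% were listed at 0 with it, the 5 named here.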

How the data were processed

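Total RNA of 2 libraries was compared, 1 per group. The submitters' processing notes name Bowtie2 and mm9, while the counting program and its strand setting are not stated there. Per the file headers, the authors' tables, 1 per library, hold RPKM values and read counts by gene. The deposited counts are estimated counts written with 4 significant digits, rounded here to whole numbers for intervals. The authors also gave each gene's RPKM as a standard score (less the mean, over the SD of the library, per the file headers), which was not used. They deposited a ratio of RPKM to its root mean square (RMS-normalized). Their merged tables of RPKM and of that ratio served as alternatives. The library tables were joined by gene name. Genes at 2 counts outnumbered those at 1 (846 to 583 without, 603 to 296 with doxycycline), so counts may be of single mates and intervals were repeated with halved counts.

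Folds are CPM ratios, and their 95% intervals are exact binomial (Clopper-Pearson) limits given the total of both libraries. Where a library had 0 counts, the fold was taken against 3 counts per library, and its bound is the exact lower limit. Genes at least 2-fold apart were counted on log2(RPKM + 0.5), with at least 1 RPKM in the higher library. TMM factors came from edgeR 4.0.16, and other steps from Python 3.11.15 with scipy 1.17.1. Simulated counts with known folds were used to check the intervals and 2-fold calls on CPM ratios. The floor of 3 counts, the log2(RPKM + 0.5) counting and TMM were not checked in this way. Named were the 8 members, heme synthesis and other globin genes, up to 4 measured members of each other list by size of ratio, genes within 100 kb, and the 5 genes at 0 with the most counts. Members and lists were chosen with earlier results of these data known. Of the lists of other cell types only some of these are printed, beside the sums. Rhd, Epb4.2, Ermap, Epor, Hemgn, Car1, Pf4, Csf1r, Mpo and Ptprc, all below 1 RPKM in both libraries, were named in addition, outside that rule. A few genes of the lists enter their counts and sums but are not reported singly here.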

Additional observations from a re-analysis of the deposited data

How the results depend on the processing

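No paired analysis was possible because each group holds 1 library, and no library could be left out for the same reason. Alas2 stayed between 4.36- and 6.01-fold lower under 4 other scalings and in both deposited merged tables, which give no fold for a gene at 0. On the log2 RPKM scale it was past 2-fold with a pseudocount of 0.5 (-1.22) or 0.1 (-1.96) but not of 1 (-0.85), and it was not past 4-fold or, below 5 RPKM, counted under that filter, so that 2 members in place of 3 were past the threshold in these 3 settings. By construction, halving the counts halved the folds against the floor. They fell to 116 for Hbb-bh1, 33.8 for Hba-x, 1.57 for Hbb-y, 152 for the 3 embryonic globins and 118 for Hbb-bh1 with Hbb-y. Rhbdf1 turned lower with doxycycline when scaled by the RPKM denominators (1.02) and in the authors' deposited RPKM (1.02) and RMS-normalized (1.21) tables, as did Pfkfb1 in the last (1.16). The summed macrophage and leukocyte markers went from a fold lower of 0.806 to 1.95 without Cd68, a setting chosen after seeing the data, by the loss of that gene. The other causes were not tested.

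Over all measured genes the 2-fold threshold took in 292 lower and 29 higher. The numbers lower were 178 with a pseudocount of 1, 114 at 5 RPKM or more, 1021 at 1.5-fold, 34 at 4-fold and 193 when centred on the median. The numbers higher were 46 with a pseudocount of 0.1, 18 at 5 RPKM or more, 120 at 1.5-fold, 10 at 4-fold, 50 when centred and 63 in the authors' deposited RPKM table. The CPM ratio of genes with at least 20 counts, chosen after seeing the data, gave 1099 lower and 184 higher. List counts moved too. Of the globin regulators 1 was lower, but 3 with a pseudocount of 0.1 and 5 at 1.5-fold. With a pseudocount of 1, at 5 RPKM or more, or at 4-fold, 0 were. Of the iron and heme genes 0 were lower, but 1 with a pseudocount of 0.1 and 4 at 1.5-fold. Of the red cell membrane genes 1 was lower at 1.5-fold, and 1 higher in the authors' deposited RPKM. Depth limits Hbb-y, at 14 counts and 0.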
